A study of Mus musculus with 6 samples.

Results

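The messenger RNAs followed here encode the machinery of the acid lysosome: the subunits of the vacuolar proton pump (V-ATPase), the cathepsins, the membrane proteins Lamp1 and Lamp2, and the transcription factors Tfeb and Tfe3. Members were chosen by symbol, every Atp6v0 and Atp6v1 subunit gene, every gene named Cts plus a letter, and the 4 single genes just named. The rule found 44 of the 45808 genes in the count table: 22 V-ATPase subunits, 18 cathepsins, Lamp1, Lamp2, Tfeb and Tfe3. RNA was sequenced from wild-type stromal-vascular cells, the fraction of fat tissue that holds adipocyte precursors, taken from the inguinal white fat of 8-week-old male mice. Cells at confluence were day 0. Day 2 cells had spent 2 days with IBMX (0.5 mM), dexamethasone (5 µM), indomethacin (125 µM), insulin (850 nM), T3 (1 nM) and rosiglitazone (1 µM), a mixture that drives precursors towards beige adipocytes, the heat-producing fat cells that arise in white fat. Day 6 cells had then been kept in insulin, T3 and rosiglitazone. Each day has 2 libraries, numbered 76 and 77 in the labels, and values are given below in that order. The series design calls them biological replicates, but no label says that they came from separate mice or separate cultures, so p-values measure only the spread between these samples, which may be technical. Medium and time in culture changed together, and the 3 comparisons between days share libraries.

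The V-ATPase pumps protons into lysosomes, endosomes and secretory vesicles. Its V1 sector in the cytosol splits ATP, and its V0 sector in the membrane carries the protons. Cathepsins are proteases, mostly of the cysteine class, that are activated in the acid lumen. Lamp1 and Lamp2 line the lysosomal membrane. Tfeb and Tfe3 belong to the MiT family of transcription factors, which bind a short palindrome called the CLEAR element in promoters of lysosomal genes and are held in the cytosol when nutrients are plentiful. In fat cells, lysosomes are known for their part in autophagy, including the removal of mitochondria and of lipid droplets.

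The libraries held 22522221 to 29458374 counts in genes. Levels are CPM, a gene's counts scaled to the library's total with edgeR's TMM factors, and where genes are compared with each other the level is divided by the exonic length in kilobases (CPM per kb). That length covers all annotated exons of a gene, merged, and not the transcripts present, so rankings between genes depend on it. The summed level of 8 adipocyte markers was 867 ± 82.7 CPM at day 0, 9240 ± 337 at day 2 and 45274 ± 5558 at day 6 (SD, n = 2), and that of 9 adipose progenitor markers was 2945 ± 72.9, 1581 ± 199.8 and 1171 ± 339 CPM. Among cells that are rich in cathepsins, the sum of 17 macrophage markers, none at 0 throughout, ran from 38.5 to 181 CPM, and the highest library was day 6 replicate 76. Osteoclast markers summed to 16.9 to 38.1 CPM with Dcstamp at 0. Neutrophil markers reached at most 2.14 CPM, mast cell markers 1.29 CPM with Mcpt4 and Tpsb2 at 0, and T and NK cell markers 0.0662 CPM with Cd3e, Cd3g, Cd8a and Gzma at 0. B and dendritic cell markers summed to 1.92 to 10.7 CPM with H2-Aa at 0, endothelial markers to 6.51 to 35.4 CPM, mural markers to 37.4 to 132 CPM, and epithelial markers to at most 0.371 CPM with Epcam at 0.

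Of the 44 members, 33 had enough counts to be tested. Another 8 were at 0 counts in all 6 libraries, where a count of 0 allows a level of up to 0.0993 to 0.150 CPM depending on the library. These were Atp6v1e2, a form of subunit E known from testis, Atp6v1g3, a form of subunit G known from kidney, Ctse, Ctsg, known from neutrophils, and Ctsj, Ctsm, Ctsq and Ctsr, which belong to a group of cathepsins known from mouse placenta. The last 3 were too low to test. Ctsw, known from T and NK cells, had 14 and 5 counts at day 0, 3 and 8 at day 2, then 3 and 2 at day 6. Atp6v1b1, the B subunit of acid-secreting epithelia, had 7 and 9, then 3 and 1, then 4 and 7 counts. Atp6v0d2, the d subunit known from osteoclasts and kidney, had 2 and 0, then 0 and 0, then 0 and 1 counts.

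Most of the tested pump genes were higher at day 6 than at day 0. By edgeR's quasi-likelihood test with Benjamini-Hochberg adjustment over all 14459 genes tested and a threshold of 0.05, 22 of the 33 tested members were higher at day 6 than at day 0, against 35.9% of all genes, and 7 were lower, against 35.1%. The V-ATPase genes made up 16 of the 22, with 1 lower and 1 not past the threshold among 18 tested. Their median log2 change was 1.17, against -0.01 over all genes tested. Lower was Atp6v0a4, which was tested only because of its day 0 counts, and Atp6v1g2 did not pass (log2 -0.46, adjusted p 0.231). Of the 16 higher, Atp6v1c2 was tested only because of its day 6 counts. Among 11 tested cathepsins 5 were higher and 4 lower, which is close to the shares over all genes, and their median log2 change was 0.20. Between 19 and 23 members were higher, and between 5 and 8 lower, under the 12 alternative settings. Because whole cultures were sequenced, a higher or lower level can mean a change in the cells of a type or in RNA per cell. These cannot be told apart.

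At day 2 against day 0, 12 of the 33 members were higher and 13 lower, close to the 33.6% of all genes called in each direction, and the median log2 change of the 33 was -0.08 against 0.00 over all genes. The V-ATPase genes gave 9 higher and 4 lower, with a median of 0.20, and the cathepsins 2 higher and 6 lower, with a median of -0.26. The 4 lower V-ATPase genes include Atp6v0a4, tested only because of its day 0 counts. Without day 0 replicate 77, the count of lower members was 8. From day 2 to day 6, 25 members were higher, against 38.2% of all genes, and 3 lower, against 27.5%. Here 16 of 18 V-ATPase genes were higher and 0 lower, with 2 not past the threshold, and 7 of 11 cathepsins were higher and 2 lower. The 16 include Atp6v1c2, tested only because of its day 6 counts, and Atp6v0a4, with 6 counts at day 6 and 0 at day 2. The median over the members was 0.81, or 0.79 with Atp6v0a4, which had 0 counts at day 2, set to its bound, against 0.12 over all genes. A joint test found a difference between any of the days for 31 of 33 members, against 84.8% of all genes.

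**Figure D1:**
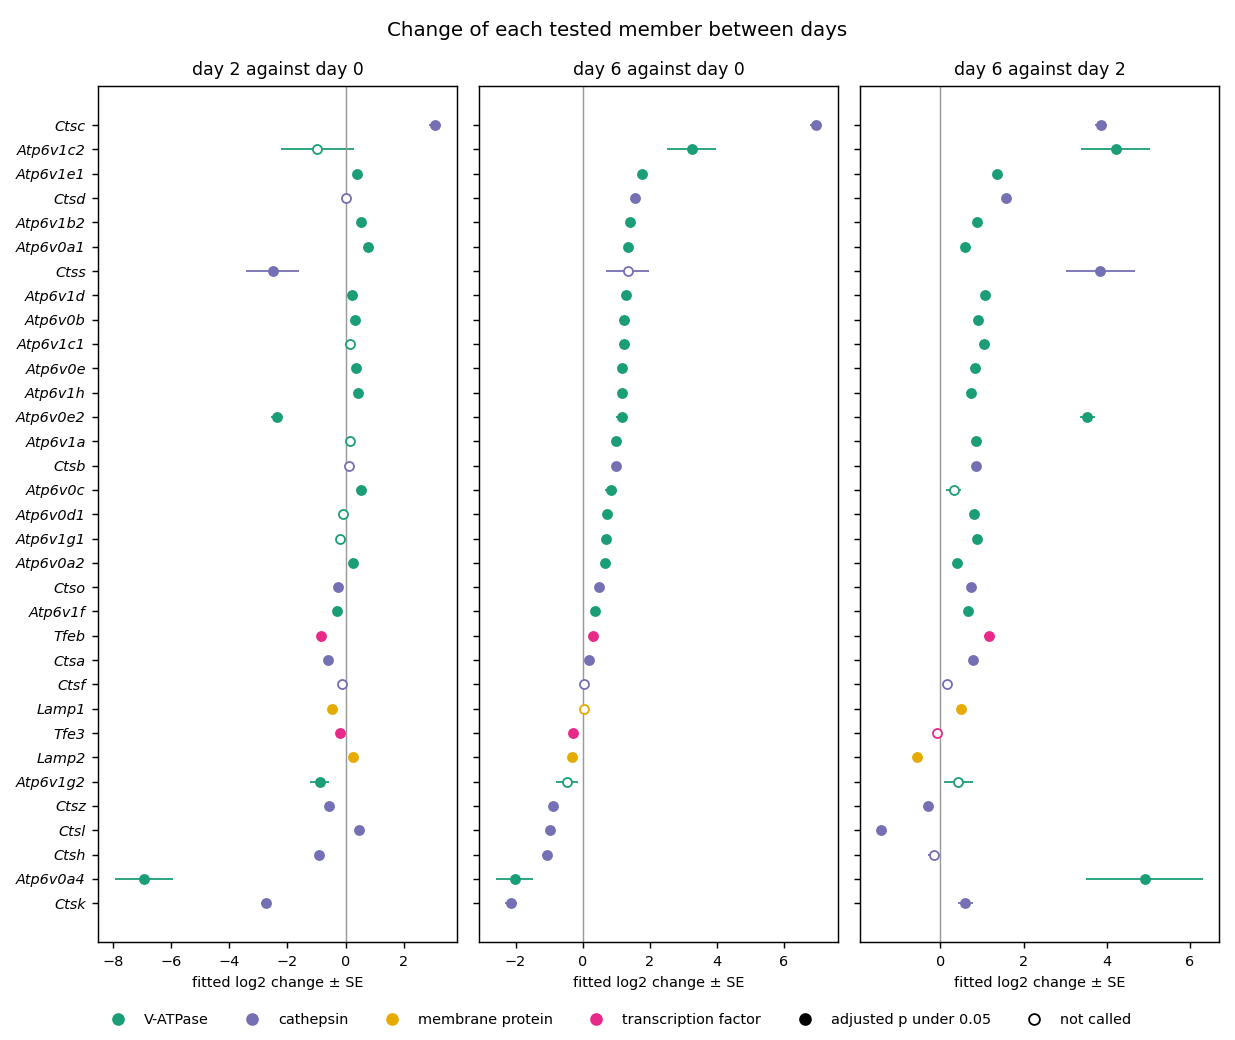
Fitted log2 change (x axis, ± SE) of the 33 tested members in the 3 comparisons, ordered by the change at day 6 against day 0, with colours for the 4 classes and filled points for an adjusted p under 0.05. In the middle panel 16 of 18 V-ATPase genes lie to the right of 0 and are filled, while cathepsins run from Ctsc at 6.95 to Ctsk at -2.14; the fitted values of Atp6v0a4 against day 2 depend on the method because it had 0 counts there.

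The promoters of several members hold the palindrome that MiT factors bind. RefSeq promoter windows of 300 bases, from 250 before to 50 after a gene's RefSeq start on build GRCm38.p6, matched 34 of the 44 members by symbol. Not matched were Atp6v0a2, Atp6v0d2, Atp6v1b2, Atp6v1c1, Atp6v1g1, Atp6v1h, Ctsb, Ctse, Ctsh and Ctsw. Letters searched were CACGTG, the core called an E-box, and TCACGTGA, the core with a flanking base on either side, as in the CLEAR element; both read the same on either strand, and every TCACGTGA also counts as a CACGTG. The core was present for 9 of the 34 members, and for 8.09% of 27025 genes with a window. The longer form was present for 5 of the 34, and for 1.12% of all genes with a window. The CLEAR element is known from promoters of lysosomal genes, the class of these members, so these shares only describe the windows. The stretches below run from 150 bases before to 20 after that start, 5′ to 3′ on the strand of the gene, with matches in capitals. They show the 5 members with the longer form, then Lamp1 with 4 copies of the core and Atp6v0b with 2.

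Ctsd, chr7:142387808-142387977, minus strand: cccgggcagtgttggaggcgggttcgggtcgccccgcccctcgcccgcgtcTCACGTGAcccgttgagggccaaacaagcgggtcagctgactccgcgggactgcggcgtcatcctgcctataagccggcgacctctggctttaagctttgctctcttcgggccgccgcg
Ctsa, chr2:164833623-164833792, plus strand: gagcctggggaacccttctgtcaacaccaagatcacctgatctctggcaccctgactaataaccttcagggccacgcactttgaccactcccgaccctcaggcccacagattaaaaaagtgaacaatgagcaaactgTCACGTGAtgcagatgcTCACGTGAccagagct
Atp6v0d1, chr8:105566045-105566214, minus strand: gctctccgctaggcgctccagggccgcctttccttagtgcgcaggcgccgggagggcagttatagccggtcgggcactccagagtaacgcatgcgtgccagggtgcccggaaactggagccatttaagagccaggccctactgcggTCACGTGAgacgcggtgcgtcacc
Atp6v1a, chr16:44139240-44139409, minus strand: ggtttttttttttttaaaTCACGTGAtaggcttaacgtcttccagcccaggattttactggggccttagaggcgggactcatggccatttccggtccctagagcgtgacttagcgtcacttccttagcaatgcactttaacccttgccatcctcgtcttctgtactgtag
Atp6v0e, chr17:26676246-26676415, plus strand: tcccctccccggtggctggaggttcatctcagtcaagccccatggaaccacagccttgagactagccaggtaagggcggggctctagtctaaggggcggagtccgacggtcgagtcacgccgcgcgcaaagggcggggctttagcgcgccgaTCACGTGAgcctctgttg
Lamp1, chr8:13159011-13159180, plus strand: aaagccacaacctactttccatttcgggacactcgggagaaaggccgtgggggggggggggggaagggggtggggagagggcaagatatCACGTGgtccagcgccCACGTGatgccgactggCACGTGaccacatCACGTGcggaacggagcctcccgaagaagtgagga
Atp6v0b, chr4:117887310-117887479, minus strand: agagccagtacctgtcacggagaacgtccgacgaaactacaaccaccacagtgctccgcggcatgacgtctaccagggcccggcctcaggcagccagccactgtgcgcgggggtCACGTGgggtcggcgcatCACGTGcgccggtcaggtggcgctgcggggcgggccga

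Counting the RefSeq start as 1, with no 0, the longer form began at -99 in Ctsd, at -13 and 5 in Ctsa, at -4 in Atp6v0d1, at -132 in Atp6v1a and at 3 in Atp6v0e. The 4 cores of Lamp1 began at -61, -45, -28 and -15, and those of Atp6v0b at -36 and -18. Ctsd had another core at -245, Ctsl 1 at -236 and Ctsf 1 at -79. Among the 9 members with a core, all tested, 6 were higher at day 6 than at day 0, 1 was lower (Ctsl) and 2 did not pass the threshold (Ctsf and Lamp1), where 35.9% of all genes were higher and 35.1% lower. Among the 17 tested members with a window but no core, 10 were higher, 5 lower and 2 not past the threshold, so most tested members were higher with or without a core. All 5 members with the longer form were called higher at day 6, although the call for Ctsa did not hold under other settings, as given with its values below. At day 2 the same 5 gave 1 higher (Atp6v0e), 1 lower (Ctsa) and 3 not past the threshold, against 33.6% of all genes each way. A match of letters is a description of the window, and binding was not measured. The RefSeq start is not always the outermost start that GENCODE gives. It lies inside the GENCODE gene by 13165 bases for Atp6v0e, 900 for Ctsa, 446 for Atp6v1a, 370 for Ctsl, 211 for Ctsd, 35 for Ctsf and 4 for Atp6v0b, outside it by 17 for Atp6v0d1, and is the same for Lamp1.

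**Figure D2:**
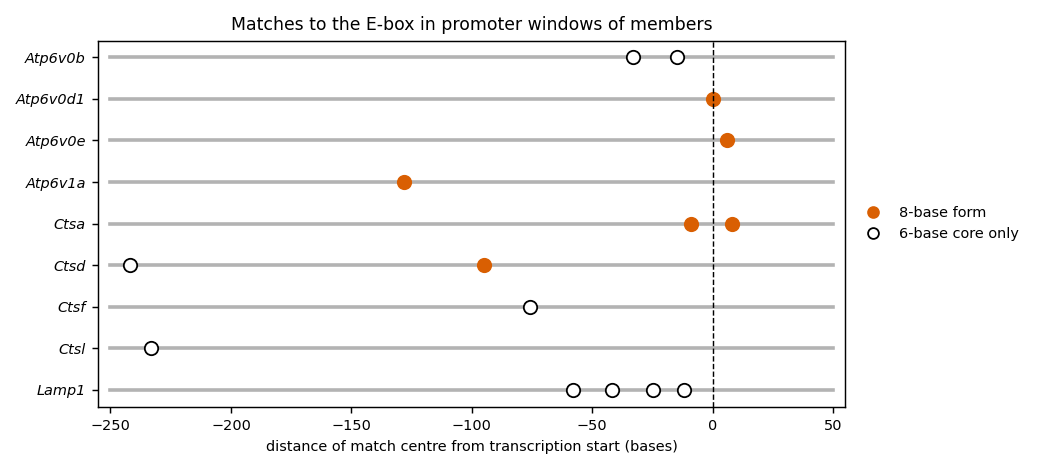
Position of each match in the promoter windows of the 9 members that hold one (x axis, distance of the centre of the match from the RefSeq transcription start in bases; filled, TCACGTGA; open, CACGTG alone). Matches of Lamp1, Atp6v0b, Atp6v0d1, Atp6v0e and Ctsa lie close to the start, and those of Ctsl and 1 of Ctsd lie near the far end of the window.

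In the V1 sector, which splits ATP, 10 of 13 genes were tested. At day 6 against day 0, 9 of the 10 were higher and 0 lower, against 35.9% and 35.1% of all genes, and Atp6v1g2 did not pass the threshold. The 9 include Atp6v1c2, tested only because of its day 6 counts. Atp6v1a, the catalytic A subunit, stood at 121 and 131 CPM at day 0, 140 and 140 at day 2, then 265 and 238 at day 6. Both day 6 libraries were above all others, a 1.99-fold rise over day 0 (log2 0.99, SE 0.08, edgeR adjusted p 1.11e-05), and the change at day 2 did not pass the threshold (log2 0.15, SE 0.08, adjusted p 0.143), but did without day 0 replicate 77 (0.0330), day 6 replicate 76 (0.0474) or day 6 replicate 77 (0.0436; range 0.0195 to 0.523). Atp6v1b2, the B subunit that shares the nucleotide-binding sites with A, was at 71.7 and 75.4, then 101 and 110, then 206 and 184 CPM. It rose in both steps, 1.44-fold by day 2 and 2.65-fold by day 6 against day 0 (edgeR adjusted p 0.000676 and 1.94e-06), and no day overlapped another. Together the 22 V-ATPase genes summed to 874 ± 15.8 CPM at day 0, 1029 ± 14.2 at day 2 and 1867 ± 118 at day 6 (SD, n = 2), or 0.0902%, 0.115% and 0.162% of the counts in genes.

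Atp6v1e1, the E subunit of the outer stalk that braces the pump (chr6:120794305-120822793, minus strand, GRCm38), had the largest rise from day 0 to day 6 among the Atp6v0 and Atp6v1 genes above 1 CPM on each day. It was at 56.2 and 58.6 CPM at day 0, 74.9 and 76.6 at day 2, then 207 and 183 at day 6. The 3 days did not overlap, and day 6 was 3.39-fold above day 0 (log2 1.76, SE 0.08, edgeR adjusted p 3.85e-07) and 2.57-fold above day 2. The other stalk subunit of the widely expressed set, Atp6v1g1 (subunit G), was at 63.7 and 63.4, then 56.1 and 56.6, then 110 and 96.6 CPM. It was 1.63-fold higher at day 6 than at day 0 (edgeR adjusted p 5.97e-05), and its lower values at day 2 did not pass the threshold (adjusted p 0.0763), but did without day 6 replicate 76 (0.0249) or day 6 replicate 77 (0.0278; range 0.0249 to 0.838). Of its transcript sequence 19.2% of 50-base words also occur in the pseudogenes Gm13453 and Gm12344, so reads that fit several places may be missing from its count.

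Atp6v1d and Atp6v1f encode the central shaft that turns inside the V1 head. Atp6v1d was at 48.8 and 47.3 CPM at day 0, 55.7 and 56.8 at day 2, then 126 and 110 at day 6, a 2.46-fold rise over day 0 (log2 1.30, SE 0.08, edgeR adjusted p 2.05e-06). Its 1.17-fold rise at day 2 (adjusted p 0.0325) did not pass the threshold without day 0 replicate 76 (0.0983), day 2 replicate 76 (0.0885) or day 2 replicate 77 (0.109), over a range of 0.00316 to 0.109. Atp6v1f was at 57.5 and 59.1, then 47.5 and 46.7, then 79.0 and 71.0 CPM, lowest at day 2 with no overlap between days. Its fall of 0.31 (log2, SE 0.07) at day 2 had an edgeR adjusted p of 0.0059, or 0.291 without day 0 replicate 77, within a range of 0.00121 to 0.291 over the alternatives. It was 1.29-fold higher at day 6 than at day 0 (adjusted p 0.00209), which did not pass with library totals alone (0.160; range 0.000156 to 0.160).

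Atp6v1c1 and Atp6v1h encode subunits C and H, which link the sectors and let V1 come off the membrane or fall silent. Atp6v1c1 was at 38.0 and 38.2 CPM at day 0, 42.6 and 43.0 at day 2, then 93.8 and 83.9 at day 6, 2.33-fold above day 0 (log2 1.22, SE 0.08, edgeR adjusted p 2.12e-06). Its rise at day 2 did not pass the threshold (adjusted p 0.0793), but did without day 0 replicate 77 (0.0388), day 6 replicate 76 (0.0285) or day 6 replicate 77 (0.0260), with a range of 0.00752 to 0.237. Atp6v1h was at 63.0 and 57.6, then 79.6 and 83.7, then 140 and 131 CPM, and rose 1.35-fold by day 2 and 2.25-fold by day 6 (edgeR adjusted p 0.000986 and 2.73e-06). Both genes had their highest values in the day 6 libraries. Atp6v1c2, the C subunit of kidney and lung, had 3 and 1 counts at day 0, 2 and 0 at day 2, then 12 and 19 at day 6, and was tested only because of its day 6 counts. Its mean was 0.0702 CPM at day 0 and 0.741 CPM at day 6, and the ratio of day 6 to day 2 was 20.9 (95% exact counting interval 5.32 to 180.2, counting error only). Atp6v1g2, the G subunit of neurons, was at 1.42 and 2.39, then 0.985 and 1.04, then 1.30 and 1.45 CPM. Its lower level at day 2 (edgeR adjusted p 0.0375) did not pass without day 0 replicate 77 (0.455), day 2 replicate 76 (0.143) or day 2 replicate 77 (0.116), with a range of 0.0136 to 0.455.

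**Figure D3:**
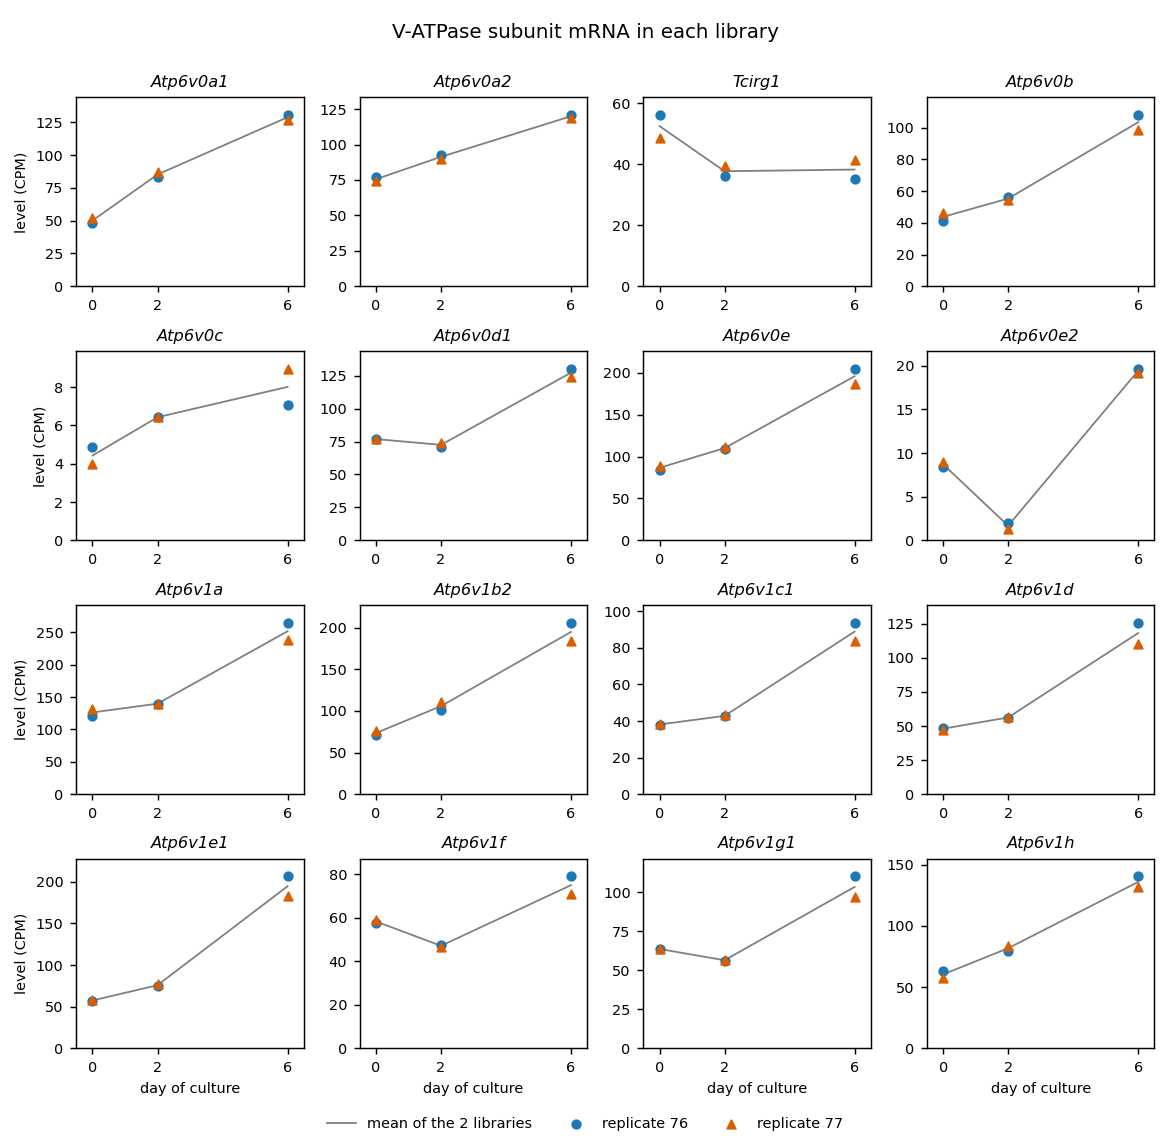
Level in CPM (y axis, from 0) on each day of culture (x axis) of the 15 V-ATPase members tested other than Atp6v0a4, Atp6v1c2 and Atp6v1g2, with Tcirg1, the a3 subunit, added; circles are replicate 76, triangles replicate 77 and lines join the means of the 2 libraries. All panels except Tcirg1 peak at day 6, and Atp6v0e2 drops to between 1.29 and 2.04 CPM at day 2.

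The V0 sector, which carries protons across the membrane, gave 7 higher and 1 lower of 8 tested genes at day 6 against day 0, where 35.9% of all genes were higher and 35.1% lower. At day 2 it gave 5 higher and 2 lower, against 33.6% of all genes each way. Atp6v0a4, tested only because of its day 0 counts, was among the lower genes in both comparisons. Subunit a, which holds the proton half-channels and sends the pump to a compartment, exists as a1 (Atp6v0a1), a2 (Atp6v0a2), a3 (Tcirg1) and a4 (Atp6v0a4). Atp6v0a1 (chr11:101009452-101063719, plus strand, GRCm38) was at 47.9 and 52.2 CPM at day 0, 82.9 and 87.4 at day 2, then 131 and 127 at day 6. It was the V-ATPase gene with the largest fitted rise at day 2, 1.70-fold (log2 0.77, SE 0.07, edgeR adjusted p 3.33e-05), and was 2.57-fold above day 0 at day 6 (log2 1.36, SE 0.07, edgeR adjusted p 9.69e-07). Atp6v0a2 was at 76.8 and 74.4, then 92.6 and 90.0, then 121 and 119 CPM, a 1.59-fold rise by day 6 (edgeR adjusted p 2.57e-05). Its further rise from day 2 to day 6 (1.31-fold, adjusted p 0.000663) did not pass with library totals alone (0.654; range 6.36e-05 to 0.654).

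Tcirg1, the a3 subunit best known from osteoclasts, is not caught by the symbol rule and moved the other way. It was at 56.2 and 48.7 CPM at day 0, 36.1 and 39.3 at day 2, then 35.1 and 41.4 at day 6, and fell by 0.46 on the log2 scale by day 6 (SE 0.11, edgeR adjusted p 0.00462). Atp6v0a4, the kidney form, had 15 and 17 counts at day 0, 0 and 0 at day 2, then 3 and 3 at day 6. It was tested only because of its day 0 counts. With 32 counts against 0, its level was at least 5.70-fold lower at day 2 than at day 0, taken against the floor of 3 counts per library. Its 3 counts per library at day 6 equal that floor, so no minimum rise from day 2 is given. Atp6v0a4 was called higher at day 6 than at day 2, with 6 counts against 0. That call was lost when either library of day 2 or of day 6 was left out. Its lower level at day 6 than at day 0 (edgeR adjusted p 0.0139) did not pass without day 0 replicate 77 (0.0859), day 6 replicate 76 (0.0859) or day 6 replicate 77 (0.0609), with a range of 0.00800 to 0.0859. Per kilobase, Atp6v0a1 made up 25.2% ± 2.31 of the summed level of the 4 subunit a genes at day 0, 37.4% ± 0.645 at day 2 and 42.9% ± 1.23 at day 6 (SD, n = 2). The share of Tcirg1 was 37.5% ± 2.69, 23.6% ± 0.916 and 18.1% ± 1.99, and that of Atp6v0a2 37.0%, 39.1% and 38.9%. Day 0 libraries had the lowest share of Atp6v0a1 and the highest of Tcirg1, with no overlap between days for either, and shares do not depend on library scaling. Osteoclast markers summed to 37.7 CPM at day 0, 17.9 at day 2 and 18.7 at day 6, and their part in the fall of Tcirg1 was not tested.

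The c ring of V0, the rotor that holds the protons, is built from Atp6v0c and Atp6v0b. Atp6v0b was at 41.3 and 46.2 CPM at day 0, 56.4 and 54.1 at day 2, then 108 and 98.5 at day 6, and rose 2.36-fold by day 6 (log2 1.24, SE 0.08, edgeR adjusted p 3.28e-06). Its 1.26-fold rise at day 2 (adjusted p 0.00651) did not pass without day 0 replicate 76 (0.0728; range 0.000417 to 0.0728). Atp6v0c, which supplies most of the ring, was listed far lower, at 4.87 and 3.99, then 6.42 and 6.44, then 7.06 and 8.97 CPM. Per kilobase it had 1.31, 1.90 and 2.37 CPM at days 0, 2 and 6, against 21.3, 26.9 and 50.4 for Atp6v0b. Of its 50-base words 10.8% also occur in the pseudogenes Atp6v0c-ps2 and Atp6v0c-ps1. Reads that fit several places may be missing from its count, which was not tested. Atp6v0c was 1.80-fold higher at day 6 than at day 0 (log2 0.85, SE 0.18, edgeR adjusted p 0.00274). Its rise at day 2 (adjusted p 0.0267) did not pass without day 0 replicate 77 (0.0626), day 2 replicate 76 (0.0878) or day 2 replicate 77 (0.0840), with a range of 0.00491 to 0.0878.

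Atp6v0d1, the subunit that couples the ring to the shaft of V1, was at 77.1 and 76.7 CPM at day 0, 70.7 and 74.2 at day 2, then 130 and 124 at day 6. It was 1.66-fold higher at day 6 than at day 0 (log2 0.73, SE 0.07, edgeR adjusted p 1.88e-05). The small e subunit has 2 genes, and they parted at day 2. Atp6v0e was at 84.4 and 88.7, then 109 and 111, then 205 and 187 CPM, a rise of 1.27-fold at day 2 and 2.26-fold at day 6 (edgeR adjusted p 0.00342 and 2.62e-06). Atp6v0e2 (chr6:48537615-48541801, plus strand, GRCm38) was at 8.41 and 9.02, then 2.04 and 1.29, then 19.7 and 19.2 CPM. It fell by 2.37 on the log2 scale at day 2 (5.19-fold, SE 0.19, edgeR adjusted p 1.48e-05) and was 11.6-fold higher at day 6 than at day 2 (log2 3.53, SE 0.19, edgeR adjusted p 1.34e-06). The day 2 libraries were the lowest and the day 6 libraries the highest, and Atp6v0e2 made up 13.6%, 2.31% and 13.4% of the e subunit level per kilobase at days 0, 2 and 6. Its share overlapped between days 0 and 6.

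**Figure D4:**
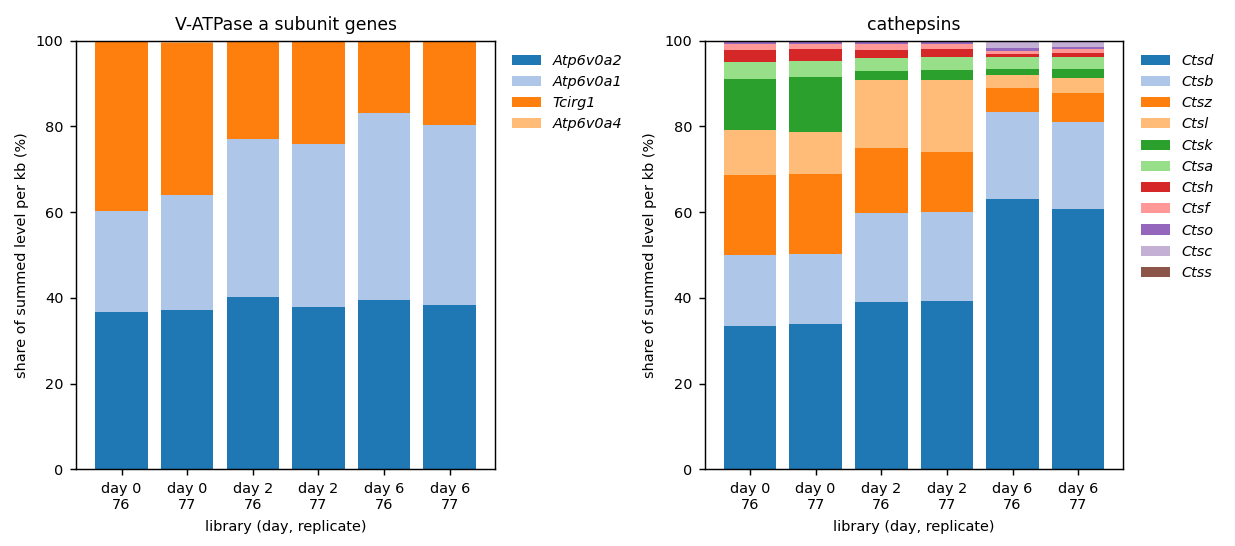
Share of the summed level per kilobase (y axis, percent) in each of the 6 libraries (x axis), for the 4 genes of V-ATPase subunit a (left) and for the 11 tested cathepsins (right). On the left the Tcirg1 band shrinks from 37.5% at day 0 to 18.1% at day 6; on the right Ctsd grows from 33.6% to 61.9% and the Ctsk and Ctsl bands are thin at day 6.

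Around the pump, 13 of 14 genes listed as other subunits or assembly factors were tested, and 8 were higher and 4 lower at day 6 against day 0 (35.9% and 35.1% of all genes), with a median log2 change of 0.30. Tmem199, an assembly factor of the secretory pathway, rose from a mean of 8.58 CPM at day 0 to 28.6 at day 6 (log2 1.74, SE 0.11, edgeR adjusted p 2.98e-06). Dmxl2, part of a complex that rejoins V1 to V0, was 3.19-fold higher at day 6, and Ncoa7, which binds the V1 sector, was 1.34-fold lower. The accessory subunit Atp6ap1 was at 180, 197 and 167 CPM on the 3 days and did not pass the threshold at day 2 or day 6 against day 0 (adjusted p 0.132 and 0.192), but did with library totals alone (0.0226 and 0.00326). Atp6ap2, the other accessory subunit, was at 59.1, 38.9 and 47.6 CPM and fell by 0.60 at day 2 and by 0.31 at day 6 against day 0 (log2, edgeR adjusted p 9.12e-05 and 0.00337). Neither accessory subunit was called higher at day 2 or day 6 against day 0 in this fit.

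Among cathepsins the largest change in level was in Ctsd, the aspartic protease that is among the most abundant in lysosomes (chr7:142375911-142388038, minus strand, GRCm38). It was at 855 and 922 CPM at day 0, 864 and 912 at day 2, then 2718 and 2557 at day 6. Days 0 and 2 overlapped, and day 6 was 2.97-fold above day 0 (log2 1.57, SE 0.10, edgeR adjusted p 2.28e-06). Per kilobase Ctsd was the highest cathepsin on each day, and its share of the summed cathepsin level was 33.6% ± 0.290, 39.1% ± 0.107 and 61.9% ± 1.57 at days 0, 2 and 6 (SD, n = 2). Of its exonic length 34.4% is also annotated as Gm49369 on the same strand, and how reads in both were counted is not given. Ctsb, the most abundant cysteine cathepsin per kilobase at days 2 and 6, was at 1088 and 1158, then 1188 and 1253, then 2254 and 2198 CPM. It was 1.98-fold higher at day 6 than at day 0 (log2 0.99, SE 0.09, edgeR adjusted p 2.52e-05), and the day 2 change did not pass the threshold (adjusted p 0.278). Summed over the 18 cathepsins, the level was 3725 ± 137 CPM at day 0, 3690 ± 161 at day 2 and 6038 ± 98.3 at day 6.

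Ctsc had the largest fold rise among the members. It encodes the dipeptidyl peptidase that activates granule proteases of immune cells (chr7:88278085-88310888, plus strand, GRCm38). It was at 1.52 and 0.823 CPM at day 0, 10.9 and 9.56 at day 2, then 160 and 140 at day 6, with no overlap between days. The rise was 8.48-fold by day 2 (log2 3.08, SE 0.21, edgeR adjusted p 6.23e-06) and 124-fold by day 6 (log2 6.95, SE 0.18, edgeR adjusted p 3.14e-08). Without day 0 replicate 76, the higher of the day 0 libraries, the log2 changes were 3.63 and 7.50. Macrophage markers summed to means of 59.3, 56.2 and 127 CPM on the 3 days, with 9 of 15 tested markers higher and 0 lower at day 6 against day 0 (35.9% and 35.1% of all genes). Their sum in the day 6 libraries was 181 and 73.3 CPM, where Ctsc was at 160 and 140. The part of macrophages in the level of Ctsc was not tested.

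Ctss is known from antigen-presenting cells. It was at 2.12 and 1.03 CPM at day 0, 0.544 and 0 at day 2, then 5.76 and 2.29 at day 6, while the macrophage sum was 64.1 and 54.5, then 73.8 and 38.5, then 181 and 73.3 CPM. On each day replicate 76 was the higher of the pair for both, and the part of macrophages in the level of Ctss was not tested. Its level at day 2 was lower than at day 0 (edgeR adjusted p 0.0373), which did not pass without day 0 replicate 76 (0.208) or day 2 replicate 77 (0.142), nor with DESeq2 (0.214; range 2.47e-10 to 0.214). Against day 0, day 6 did not pass the threshold (adjusted p 0.0955), but did with a replicate block (0.0117) and without day 6 replicate 77 (0.0132; range 2.07e-06 to 0.528).

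Ctsk, the collagen-degrading cathepsin of osteoclasts and fibroblasts (chr3:95499256-95509362, plus strand, GRCm38), had the largest fall among cathepsins. It was at 193 and 223 CPM at day 0, 29.5 and 32.9 at day 2, then 37.4 and 57.3 at day 6. Day 0 stood apart from all later libraries, and the fall was 6.67-fold at day 2 (log2 -2.74, SE 0.18, edgeR adjusted p 5.45e-06) and 4.40-fold at day 6 (log2 -2.14, SE 0.18, edgeR adjusted p 1.19e-05). The rise from day 2 to day 6 (1.52-fold, adjusted p 0.0178) did not pass without day 0 replicate 77 (0.0618), day 2 replicate 76 (0.107), day 2 replicate 77 (0.0526) or day 6 replicate 77 (0.0596), with a range of 2.77e-09 to 0.296. Its share of the cathepsin level per kilobase was 12.2%, 2.14% and 1.73% at days 0, 2 and 6. Of the progenitor markers 8 of 9 were lower at day 6 than at day 0, against 35.1% of all genes. Of 4 tested osteoclast markers 2 were lower at day 6 than at day 0 (Itgb3 and Mmp9), 1 was higher (Oscar, at no more than 0.548 CPM) and Nfatc1 did not pass the threshold. Their list had sums of 38.1 and 37.4, then 19.0 and 16.9, then 17.2 and 20.1 CPM, and the part of either cell type in the change of Ctsk was not tested.

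Ctsl, a general endopeptidase of lysosomes (chr13:64359337-64370890, minus strand, GRCm38), peaked at day 2. It was at 740 and 745 CPM at day 0, 975 and 1083 at day 2, then 355 and 409 at day 6, with no overlap between days. It rose 1.39-fold at day 2 (log2 0.47, SE 0.10, edgeR adjusted p 0.00334) and was 2.69-fold lower at day 6 than at day 2 (log2 -1.43, SE 0.10, edgeR adjusted p 6.56e-06) and 1.94-fold lower than at day 0. Of its exonic length 26.8% overlaps Gm47123 on the opposite strand and the pseudogene Gm49230, and whether counting used the strand is not stated. Per kilobase its share of the cathepsin level was 10.2%, 16.4% and 3.25%, which placed it above Ctsk and Ctsz at day 2 and well below Ctsb at day 6.

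Ctsz and Ctsh, which trim single residues from protein ends, were both lower after induction. Ctsz, a carboxypeptidase, was at 295 and 309 CPM at day 0, 204 and 199 at day 2, then 152 and 174 at day 6. It was 1.50-fold lower at day 2 (edgeR adjusted p 0.000395) and 1.86-fold lower at day 6 than at day 0 (log2 -0.89, SE 0.09, edgeR adjusted p 2.87e-05). Its further fall from day 2 to day 6 (1.24-fold, adjusted p 0.0130) did not pass without day 2 replicate 76 (0.0731; range 0.000411 to 0.0731). Ctsh, an aminopeptidase, was at 147 and 151, then 74.6 and 83.5, then 60.1 and 81.8 CPM. It was 1.88-fold lower at day 2 and 2.10-fold lower at day 6 than at day 0 (edgeR adjusted p 0.000359 and 0.000127), and days 2 and 6 overlapped (adjusted p 0.324). Between days 2 and 6 Ctsh passed the threshold without day 6 replicate 77 (0.00248), with a log2 change of -0.39, and the change was 0.05 without day 6 replicate 76.

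Ctsa, a serine carboxypeptidase that protects lysosomal galactosidase and sialidase, dipped at day 2. It was at 204 and 209 CPM at day 0, 136 and 139 at day 2, then 245 and 230 at day 6. The fall at day 2 was 1.50-fold (log2 -0.59, SE 0.07, edgeR adjusted p 0.000134), and from day 2 to day 6 it rose 1.73-fold (log2 0.79, SE 0.07, edgeR adjusted p 2.38e-05). Its 1.15-fold rise of day 6 over day 0 (adjusted p 0.0321) did not pass without day 0 replicate 76 (0.168), day 0 replicate 77 (0.0991), day 2 replicate 76 (0.0615), day 2 replicate 77 (0.0589) or day 6 replicate 76 (0.0706), and the change turned to -0.05 with library totals alone (0.572; range 0.00763 to 0.572). Of its exonic length 17.4% overlaps Neurl2 and Pltp on the opposite strand.

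Ctso and Ctsf are less-studied cysteine cathepsins. Ctso was at 35.9 and 39.1, then 29.7 and 33.1, then 51.6 and 53.1 CPM, and was 1.40-fold higher at day 6 than at day 0 (log2 0.48, SE 0.08, edgeR adjusted p 0.000876). Its lower level at day 2 (adjusted p 0.0248) did not pass without day 0 replicate 77 (0.723) or day 2 replicate 76 (0.185; range 0.0129 to 0.723). Ctsf was at 66.8 and 64.9, then 63.0 and 58.2, then 69.2 and 66.4 CPM and passed the threshold in none of the 3 comparisons (edgeR adjusted p 0.158, 0.606 and 0.0708 at day 2 against day 0, day 6 against day 0 and day 6 against day 2). With library totals alone it was called lower at day 6 against days 0 and 2, with log2 changes of -0.21 and -0.20.

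**Figure D5:**
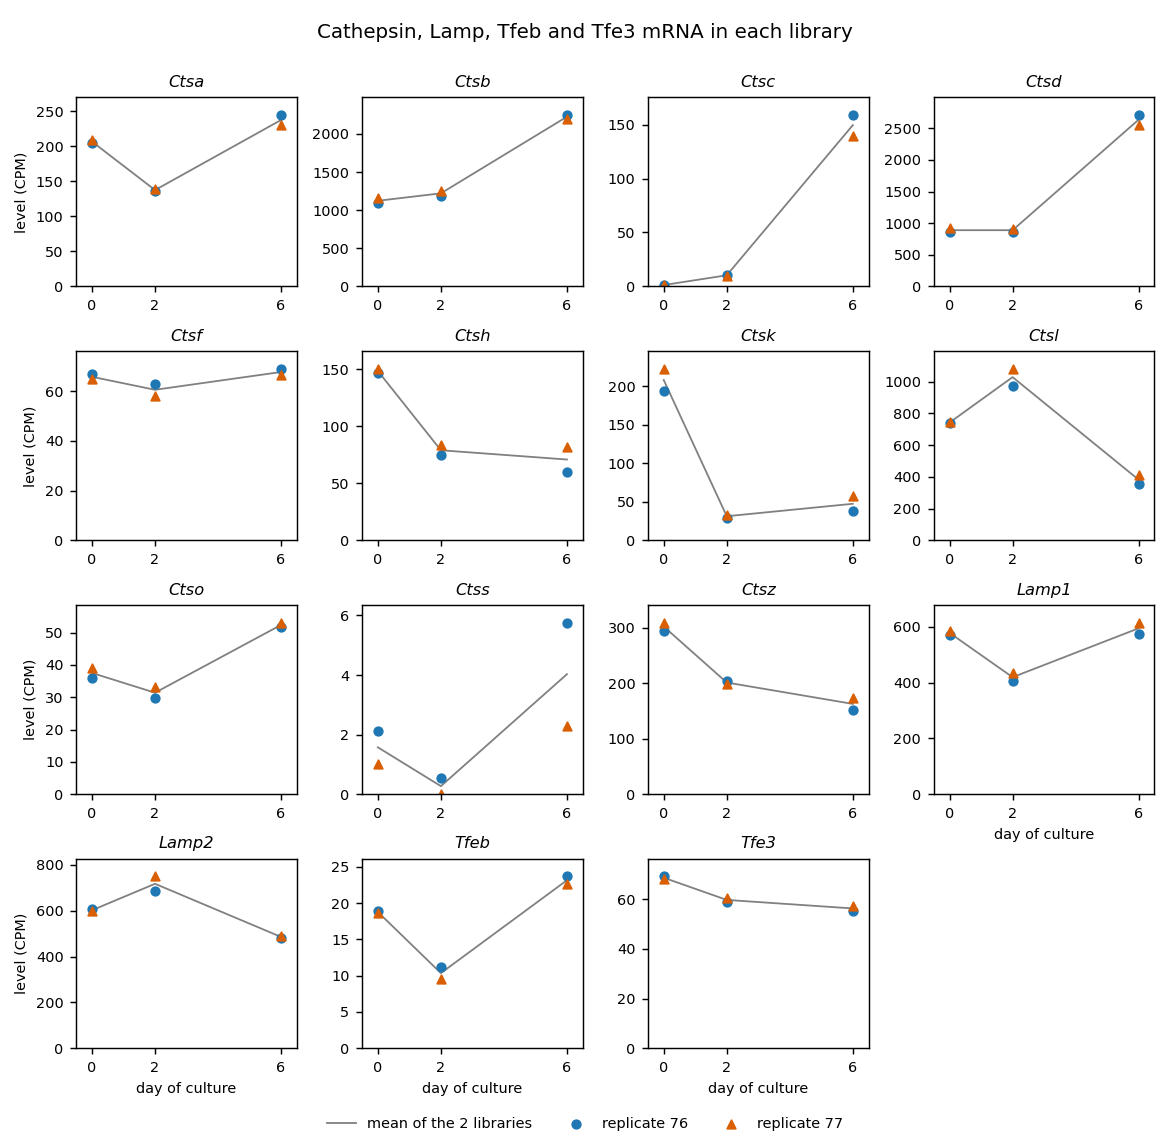
Level in CPM (y axis, from 0) on each day of culture (x axis) of the 11 tested cathepsins, Lamp1, Lamp2, Tfeb and Tfe3; circles are replicate 76, triangles replicate 77 and lines join the means. Ctsc and Ctsd rise at day 6, Ctsk drops by day 2, Ctsl and Lamp2 peak at day 2, and Ctsa, Lamp1 and Tfeb have their lowest values there.

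Lamp1 and Lamp2, the heavily glycosylated proteins that coat the lysosomal membrane, moved in opposite directions in both steps. Lamp1 was at 570 and 586 CPM at day 0, 405 and 433 at day 2, then 574 and 615 at day 6. It was 1.38-fold lower at day 2 than at day 0 (edgeR adjusted p 0.00131), a call lost without day 0 replicate 77 (0.0650; range 2.28e-06 to 0.0650). It was 1.42-fold higher at day 6 than at day 2 (adjusted p 0.000848), a call lost with library totals alone (0.200; range 6.27e-07 to 0.200), and days 0 and 6 overlapped (adjusted p 0.679). Lamp2, whose A form takes up proteins in chaperone-mediated autophagy, was at 605 and 598, then 685 and 749, then 479 and 491 CPM. It was 1.48-fold lower at day 6 than at day 2 (log2 -0.56, SE 0.08, edgeR adjusted p 0.000442), with the day 2 libraries highest and the day 6 libraries lowest. Its 1.19-fold rise at day 2 (adjusted p 0.0260) did not pass without day 0 replicate 76 (0.108) or day 2 replicate 77 (0.160; range 0.000946 to 0.160), and its lower level at day 6 than at day 0 (0.00986) did not pass without day 0 replicate 76 (0.0625) or day 0 replicate 77 (0.0561; range 0.000108 to 0.0625). Lamp1 made up 77.4%, 67.6% and 81.4% of the Lamp1 and Lamp2 level per kilobase at days 0, 2 and 6. Before division by length, the means on these days were 578, 419 and 594 CPM for Lamp1 and 602, 717 and 485 CPM for Lamp2.

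Tfeb (chr17:47737030-47792419, plus strand, GRCm38) dipped at day 2 and recovered. It was at 18.9 and 18.7 CPM at day 0, 11.2 and 9.49 at day 2, then 23.7 and 22.6 at day 6, with no overlap between days. It was 1.81-fold lower at day 2 than at day 0 (log2 -0.86, SE 0.11, edgeR adjusted p 0.000157) and 2.23-fold higher at day 6 than at day 2 (log2 1.16, SE 0.11, edgeR adjusted p 2.67e-05). Day 6 was 1.23-fold above day 0 (adjusted p 0.0278), which did not pass without day 0 replicate 76 (0.0993), day 0 replicate 77 (0.111) or day 6 replicate 76 (0.0781), nor with library totals alone (0.653; range 0.0220 to 0.653). Tfe3 (chrX:7762560-7775202, plus strand, GRCm38) was at 69.1 and 68.2, then 58.8 and 60.6, then 55.2 and 57.4 CPM, and was 1.22-fold lower at day 6 than at day 0 (log2 -0.29, SE 0.06, edgeR adjusted p 0.00376). Its lower level at day 2 (adjusted p 0.0210) did not pass without day 0 replicate 76 (0.117), day 0 replicate 77 (0.575), day 2 replicate 76 (0.131) or day 2 replicate 77 (0.0744), with a range of 0.0106 to 0.575. From day 2 to day 6 Tfe3 did not pass (0.270), but did without day 0 replicate 77 (0.0367).

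Of the other MiT factors, Mitf was at 17.0, 10.1 and 22.5 CPM on the 3 days and Tfec at 0.970, 0.0180 and 0.239 CPM. Mitf was lower at day 2 (log2 -0.74, SE 0.15, edgeR adjusted p 0.00258, or 0.0600 without day 0 replicate 77; range 2.85e-08 to 0.0600). Tfec was lower at day 2 (edgeR adjusted p 0.000222), with 30 and 23 counts at day 0 and 0 and 1 at day 2. It was tested only because of its day 0 counts. Per kilobase Tfe3 was the most abundant of the 4 factors on each day, at 54.4%, 65.0% and 44.0% of their summed level, and Tfeb made up 24.3%, 18.4% and 29.6%. These are RNA levels, and the position of the factors in the cell, which sets their activity, was not measured.

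The counts of other lysosomal genes are read against 35.9% of all genes higher and 35.1% lower at day 6 against day 0, and 33.6% each way at day 2. Of 38 acid hydrolases and activators, all tested, 9 were higher and 22 lower at day 6 against day 0, and 3 and 24 at day 2, with median log2 changes of -0.29 and -0.41. Among them Galc, which splits galactosylceramide, was 3.05-fold higher at day 6 (edgeR adjusted p 5.84e-05). Gm2a, a lipid-lifting cofactor of lysosomal enzymes, had a log2 change of 0.89 and the sulfatase Galns of -1.09. Other proteins of the lysosomal membrane and lumen gave 15 higher and 4 lower of 31 tested at day 6 against day 0, with a median of 0.24. Mfsd8, a lysosomal membrane protein lost in a storage disease, rose from 12.4 to 46.0 CPM and Cd63, a tetraspanin of late endosomes, fell from 812 to 448 CPM. The peptide transporter Abcb9 had a log2 change of 1.68 and the nucleoside transporter Slc29a3 of -0.93. In the routes that deliver enzymes, 4 of 11 genes were higher and 4 lower at day 6 against day 0, near the shares over all genes. The sorting receptor Sort1 went from a mean of 19.0 CPM at day 0 to 704 at day 6 (log2 5.22, SE 0.11), and its relative Sorl1 from 0.689 to 96.2 CPM. The mannose 6-phosphate receptor Igf2r fell by 1.20 on the log2 scale, from 279 to 122 CPM, and Sumf1, which activates sulfatases, by 0.65.

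In the list of MiT relatives and the nutrient switch on the lysosome, 21 of 27 tested genes were higher and 4 lower at day 6 against day 0 (35.9% and 35.1% of all genes), with a median log2 change of 0.48. Mtor, the kinase that keeps Tfeb in the cytosol, rose from 48.7 to 169.8 CPM, and Ppp3ca, a catalytic subunit of calcineurin, the phosphatase that releases it, fell from 174 to 99.2 CPM. Prkaa2, a catalytic subunit of AMP-activated kinase, had a log2 change of 3.78, or 4.36 without day 0 replicate 77. Fnip2, a partner of folliculin, had one of -0.44 (edgeR adjusted p 0.0103), which did not pass without day 0 replicate 76 (0.0836; range 0.00100 to 0.0836). Of 39 autophagy genes 31 were higher and 2 lower, against the same shares, with a median of 0.46. Bnip3, a mitophagy receptor, was at 99.4, 145 and 625 CPM, with the day 6 libraries at 789 and 461. The protease Atg4d had a log2 change of 1.57, and the early autophagy genes Wipi1 and Ulk2 of -0.46 and -0.30. Of 7 tested cathepsin inhibitors 5 were higher and 1 lower at day 6 against day 0, against the same shares. Ctla2a, which resembles the propeptide of cysteine cathepsins and inhibits them, was at 25.2 CPM at day 0, 427 at day 2 and 249 at day 6 (log2 3.31 at day 6 against day 0, SE 0.24, edgeR adjusted p 5.85e-06). The serpins Serpina3n and Serpinb6a had log2 changes of 2.28 and -0.98. No test compared these lists with each other or with the members.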

How the data were processed

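Polyadenylated RNA was sequenced in 6 libraries, per the labels. The deposited table holds raw read counts per gene made by the authors. Its column names say RPKM, but the values are whole numbers and end in the summary lines of HTSeq. Per the submitters' processing notes, TopHat2 2.0.13 and HTSeq 0.9.1 were used on mm10 (GRCm38); no source used here gives the annotation, the strand setting or other counting settings. The summary lines were left out: 2.62% to 3.23% of alignments lay in no feature, 4.40% to 4.91% were ambiguous between genes and 4.16% to 9.05% were not unique.

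Counts of all 6 libraries entered 1 fit of edgeR 4.0.16 in R 4.3.3 (TMM scaling, filterByExpr, quasi-likelihood F test, a mean per day, 3 residual degrees of freedom), which tested 14459 genes and left 31349 untested. P-values were adjusted by Benjamini-Hochberg over all genes tested. SE is the fitted log2 change divided by the square root of F. The steps were tested on simulated data. Common biological variation was 0.0830. Within each day, libraries 76 and 77 differed beyond counting noise (chi-square per degree of freedom 7.27, 8.11 and 28.5). Each was counted once in n, but this spread may be technical and does not show that they are independent. There were no molecular identifiers, and reads are not molecules, so floors (3 counts) and intervals cover counting error only.

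Deviations of same-numbered libraries from their day means correlated weakly across genes (Pearson's r 0.109, 0.112 and 0.213, all over the limit set for pairing). Spearman's rho was lower, at 0.0589, 0.0546 and 0.176. The numbers 76 and 77 were therefore treated as a possible pairing, which no label states. The main fit has no term for it, and a value with the replicate block is printed where it changes a call. Alternatives were DESeq2 1.42.0, its size factors in edgeR, library totals alone, no filter on low counts, a mean of at least 1 CPM, the replicate block, and leaving out each library. Exonic lengths, positions and overlaps came from the GENCODE annotation of GRCm38, matched by symbol, and promoters from RefSeq. Members and gene lists were chosen with earlier results of these data known. Every member may be named; from each other list, up to 2 genes with the highest and up to 2 with the lowest log2 change at day 6 against day 0 among those past the threshold with a mean of at least 5 CPM, and always Tcirg1, Atp6ap1, Atp6ap2, Mitf and Tfec. A gene that this rule picks among the acid hydrolases is not reported here.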

Additional observations from a re-analysis of the deposited data

How the results depend on the processing

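Of 99 member results (33 members, 3 comparisons), 66 kept their direction and their side of the threshold under all 12 alternatives, and in the other 33 a call was lost (20), gained (7) or a direction turned (9) under at least 1; a result can be in more than 1 group. The count of lower members at day 2 against day 0 ranged from 8 to 14 when 1 library was left out, and 8 came without day 0 replicate 77, a setting that moved the median of all genes by 0.14. At day 6 against day 2 it ranged from 2 to 4 with a library left out and was 6 with library totals alone, which moved the median of all genes by 0.11, -0.25 and -0.36 in the 3 comparisons (day 2 against day 0, day 6 against day 0, day 6 against day 2); values with library totals are to be read against these shifts. With the replicate block (a paired fit) the counts were 12 higher and 13 lower at day 2 against day 0, 23 and 7 at day 6 against day 0, and 25 and 3 at day 6 against day 2, and it changed no member call other than that of Ctss at day 6 against day 0. Directions that turned were mostly of results that had not passed the threshold. With library totals the log2 change was -0.041 for Atp6v0c at day 6 against day 2, 0.0266 for Atp6v0d1 at day 2 against day 0, -0.0466 for Ctsa, -0.21 for Ctsf and -0.20 for Lamp1 at day 6 against day 0, and -0.20 for Ctsf at day 6 against day 2. Ctsd at day 2 against day 0 was -4.57e-06 and became 0.04025 with DESeq2 size factors in edgeR, 0.04028 with DESeq2, 0.11 with library totals, 0.0119 without a filter on low counts and 0.000174 with the replicate block, and ran from -0.0538 to 0.20 with a library left out. With a library left out, Atp6v0d1 ran from -0.11 to 0.0587 and Ctsf from -0.17 to 0.0080 at day 2 against day 0, and Ctsh from -0.39 to 0.0483 at day 6 against day 2. The cause of these changes was not tested. Depth limits the members under 1 CPM (Atp6v0a4, Atp6v1c2 and the 11 untested members), where a few counts set the fold.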
